A study of Homo sapiens with 6 samples.

Results

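Metallothioneins and the machinery of zinc export were examined in LNCaP cells, a human prostate cancer line that responds to androgen, after 6 h of exposure to 20 µM gedunin, a plant limonoid known from the neem tree. The 9 genes chosen by name were the metallothioneins MT1E, MT1F, MT1G, MT1H, MT1M, MT1X and MT2A, the zinc-sensing transcription factor MTF1 and the plasma membrane zinc exporter SLC30A1. All 9 were measured, by 14 of the 22215 probe sets on the arrays, against 12165 genes in all. Of the 14 probe sets, 11 belonged to the 7 metallothioneins, and 0 probe sets named a member together with other genes. Treated cells (3 arrays, gedunin 1 to 3) and cells given DMSO, the solvent (3 arrays, DMSO 1 to 3), were kept in RPMI with serum, lysed in Trizol after 6 h, and their RNA was hybridised to Affymetrix arrays. The labels call the arrays of a group biological replicates without saying how the cultures were separated, so p-values cover the spread from array to array. LNCaP is 1 cell line, and no zinc or cadmium treatment was included among these arrays.

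Metallothioneins are small cysteine-rich proteins that bind zinc, copper and cadmium and buffer their free levels in the cell. When free zinc rises, MTF1 binds metal response elements in DNA and raises transcription of metallothionein genes and of SLC30A1, which moves zinc out of the cytosol. Glucocorticoids and oxidative stress can also raise metallothioneins, and the normal prostate is known for its high zinc content, which falls in prostate cancer.

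The third control array, labelled DMSO 3, lacked the LNCaP profile, so the comparison is gedunin 1 to 3 against DMSO 1 and 2, with that array given apart. The intensities of 5 luminal prostate markers (FOLH1, KLK3, KRT18, KRT8 and TMPRSS2) summed to 134 on it and to between 12270 and 12949 on the other 5 arrays. Those of 6 leukocyte markers (CD74, HLA-DRA, PTPRC, CD53, CORO1A and LCP1) summed to 21301 on it and to between 666 and 862 elsewhere. LCP1 held most of the latter range, at 564 to 748, and CD74 read 19.1 to 20.8 on those 5 arrays. The part of a different cell source in the values of DMSO 3 was not tested.

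The genes of the family lie side by side. In the RefSeq gene table, MT4, MT3, MT2A, MT1E, MT1M, MT1A, MT1B, MT1F, MT1G, MT1H and MT1X follow each other in that order on chromosome 16, with metallothionein pseudogenes and uncharacterised transcripts among them, while MTF1 and SLC30A1 lie on chromosome 1. Start-site sequences from RefSeq (build GRCh38.p14) were at hand for MT1H, MT1X, MT2A, MTF1 and SLC30A1. For SLC30A1, the member that rose, and for the metallothioneins MT2A and MT1X, the 250 bases before the annotated start are printed 5′ to 3′, since all 3 genes are known targets of MTF1. Capitals mark the core of the metal response element, searched as TGCACNC and TGCGCNC on both strands, where N is any base.
SLC30A1, chr1:211579162-211579411, minus strand: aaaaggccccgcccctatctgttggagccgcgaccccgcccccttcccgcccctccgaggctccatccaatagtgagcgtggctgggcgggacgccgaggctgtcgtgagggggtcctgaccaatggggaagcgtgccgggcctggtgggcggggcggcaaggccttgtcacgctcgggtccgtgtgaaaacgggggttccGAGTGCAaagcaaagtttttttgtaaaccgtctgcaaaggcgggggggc
MT2A, chr16:56608334-56608583, plus strand: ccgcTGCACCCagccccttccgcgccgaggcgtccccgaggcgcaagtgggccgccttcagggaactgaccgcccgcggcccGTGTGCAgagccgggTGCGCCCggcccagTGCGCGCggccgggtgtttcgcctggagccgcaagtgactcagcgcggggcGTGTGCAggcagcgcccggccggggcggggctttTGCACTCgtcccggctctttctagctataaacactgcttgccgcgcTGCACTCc
MT1X, chr16:56682220-56682469, plus strand: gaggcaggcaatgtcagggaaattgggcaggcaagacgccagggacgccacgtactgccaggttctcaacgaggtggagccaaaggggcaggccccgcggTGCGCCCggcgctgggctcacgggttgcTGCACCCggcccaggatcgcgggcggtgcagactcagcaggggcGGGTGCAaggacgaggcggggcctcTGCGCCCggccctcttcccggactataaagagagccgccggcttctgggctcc

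In the 300 bases around the start (250 before, 50 after), the core matched at 8 places in MT2A, 8 in MT1H, 4 in MT1X, 2 in SLC30A1 and 0 in MTF1. Of these, 7, 4 and 1 lay wholly in the printed bases of MT2A, MT1X and SLC30A1. Matches are counted per position and may overlap. The metallothionein cores stood in both orientations, with 5 forward and 3 reverse in MT2A, and the 2 of SLC30A1 were both reverse. Of 35116 windows of this length, 29.6% held at least 1 match, 2.3% at least 3 and 0.162% at least 5. SLC30A1, MT2A and MT1X each held 1 match to TGACNNNGC, the core of the antioxidant response element, which 13.3% of all windows held. The paired heat shock unit GAANNTTC, present in 6.77% of windows, matched in 0 of these 5 genes' windows. A match describes letters in a window and does not show that a factor binds there.

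The zinc exporter rose, and no metallothionein probe set passed the test. SLC30A1 was 1.70-fold higher with gedunin, 1 of the 2 MTF1 probe sets was 1.33-fold higher, and 0 of the 11 metallothionein probe sets passed the test in either direction. In RNA of whole cultures, a change in some cells and a smaller change in all cells cannot be told apart. Changes are log2 fold changes of gedunin over DMSO 1 and 2, with n = 3 and 2 arrays, given with the standard error and 95% interval of limma, which pools the spread across probe sets. A change is called when its Benjamini-Hochberg adjusted p over all probe sets is below 0.05. By this rule 15.3% of all probe sets were called, 7.37% higher and 7.91% lower, and of the 14 member probe sets 2 were called higher and 0 lower, a share near this background. In 27.0% of all probe sets, and in 0 of the 11 of the metallothioneins, the unadjusted p was below 0.05.

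SLC30A1, also called ZnT1, is the main route by which cells export zinc across the plasma membrane. Its single probe set read 154, 178 and 175 on gedunin 1, 2 and 3, against 97.3 and 101 on DMSO 1 and 2 and 85.8 on the array labelled DMSO 3. All gedunin arrays lay above DMSO 1 and 2, and the lowest treated value was well clear of the higher of these. The log2 fold change was 0.76 ± 0.10 (95% interval 0.55 to 0.98, limma adjusted p = 5.42e-04), a fold of 1.46 to 1.97 by that interval. Among the 12165 genes, taking 1 probe set each, SLC30A1 stood at rank 346 by size of rise. With the array labelled DMSO 3 included the change was 0.83 ± 0.11 (limma adjusted p = 0.0364). There 1.40% of probe sets were called, 1.13% higher and 0.270% lower, and SLC30A1 was the 1 member probe set among them.

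MTF1, which reads free zinc through its zinc fingers, gave unequal values on its probe sets. Probe set 205322_s_at read 58.6, 71.3 and 73.7 with gedunin and 53.9 and 47.6 with DMSO, and 54.5 on the array labelled DMSO 3. The treated arrays lay above DMSO 1 and 2, with gedunin 1 close to DMSO 1. The change was 0.42 ± 0.12 (95% interval 0.15 to 0.68, limma adjusted p = 0.0403). This call was lost without gedunin 2 (0.38, adjusted p = 0.102), without gedunin 3 (0.35, adjusted p = 0.0993), without DMSO 1 (0.51, adjusted p = 0.0912), without DMSO 2 (0.32, adjusted p = 0.271) and with the array labelled DMSO 3 included (0.38, adjusted p = 0.316). Probe set 205323_s_at read 36.4, 44.4 and 58.1 with gedunin and 38.1 and 41.4 with DMSO, so the groups overlapped and gedunin 3 stood highest. Its change was 0.19 ± 0.16 (95% interval -0.17 to 0.56, limma adjusted p = 0.516).

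MT2A, the most widely expressed human metallothionein, read 571, 645 and 668 with gedunin against 672 and 661 with DMSO. The groups overlapped, with gedunin 1 lowest. The change was -0.09 ± 0.10 (95% interval -0.31 to 0.13, limma adjusted p = 0.624), so that rises above 1.09-fold lie outside the interval.

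MT1X, another widely expressed member, has a pair of probe sets. On 208581_x_at it read 278, 284 and 218 with gedunin and 261 and 238 with DMSO, a change of 0.05 ± 0.12 (95% interval -0.23 to 0.32, limma adjusted p = 0.860). On 204326_x_at it read 185, 170 and 145 against 172 and 179, a change of -0.09 ± 0.11 (95% interval -0.34 to 0.17, limma adjusted p = 0.696). On both, gedunin 3 was the lowest of the 5 arrays, by 0.37 and 0.29 on the log2 scale below the mean of gedunin 1 and 2.

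MT1G read 254, 264 and 266 with gedunin and 254 and 264 with DMSO on 204745_x_at, the tightest of the member probe sets. Its highest array was 1.05-fold above its lowest among the 5, and the change was 0.01 ± 0.09 (95% interval -0.18 to 0.20, limma adjusted p = 0.947). The other probe set of MT1G, 210472_at, read 24.6 to 29.1 on the 5 arrays, below the array medians of 31.1 to 31.8, with a change of 0.09 ± 0.09 (limma adjusted p = 0.635).

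MT1F showed the most negative value of the family, without passing the test. On 213629_x_at it read 91.0, 102 and 69.7 with gedunin and 116 and 97.7 with DMSO, with a change of -0.30 ± 0.15 (95% interval -0.64 to 0.04, limma adjusted p = 0.250). On 217165_x_at it read 43.8, 42.4 and 43.9 against 53.2 and 45.8, with a change of -0.19 ± 0.10 (95% interval -0.40 to 0.03, limma adjusted p = 0.247). The groups overlapped on the first of these and did not on the second. With DMSO 3 included the values were 0.17 and 0.10, on the other side of 0 and not called.

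MT1H read 54.6, 51.2 and 52.1 with gedunin and 51.4 and 46.8 with DMSO, a change of 0.10 ± 0.09 (95% interval -0.10 to 0.30, limma adjusted p = 0.546). MT1E read 23.8 to 26.7 with gedunin and 21.3 and 24.9 with DMSO, a change of 0.13 ± 0.10 (95% interval -0.09 to 0.36, limma adjusted p = 0.471). MT1M read 18.8 to 23.7 against 22.5 and 23.1 on 216336_x_at and 13.5 to 15.2 against 15.5 and 16.8 on 217546_at, with changes of -0.13 ± 0.11 and -0.17 ± 0.09 (limma adjusted p = 0.502 and 0.293). MT1E, MT1M and the weaker MT1G probe set lay below the array median. RMA shrinks folds at such levels, and without detection calls a signal there cannot be told from background. For these 4 probe sets a change could have gone unseen.

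Over the 11 metallothionein probe sets the median log2 fold change was -0.09, beside -0.01 over all 22215. Of the 11 values 5 were above 0 and 6 below, between -0.30 and 0.13, and the highest upper bound of any interval was 0.36. The 95% interval of SLC30A1, from 0.55, thus lay above those of all 11, although the difference between SLC30A1 and a metallothionein was not itself tested. In 2 of the 11 the groups did not overlap, 217165_x_at of MT1F and 217546_at of MT1M, each with the treated arrays lower, against 23.5% of all probe sets with the treated arrays lower. Over the 14 member probe sets, 2 had all treated arrays higher and 2 lower, against 19.3% and 23.5% of all probe sets and 42.8% in either direction. Centring each array on GAPDH and ACTB moved the median of all probe sets from -0.01 to -0.18 and that of the metallothioneins to -0.26. It called 3 of the 11 metallothionein probe sets lower, against 5226 of all 22215, so nothing is read from that count. SLC30A1 was still higher there (0.59, limma adjusted p = 0.00237) and MTF1 was not called. Of the 11 probe sets 9 carry the suffix _x_at, which marks probes that can bind other transcripts, so signal of 1 family member may appear under another name, and the 2 others lie below the array median.

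**Figure D1:**
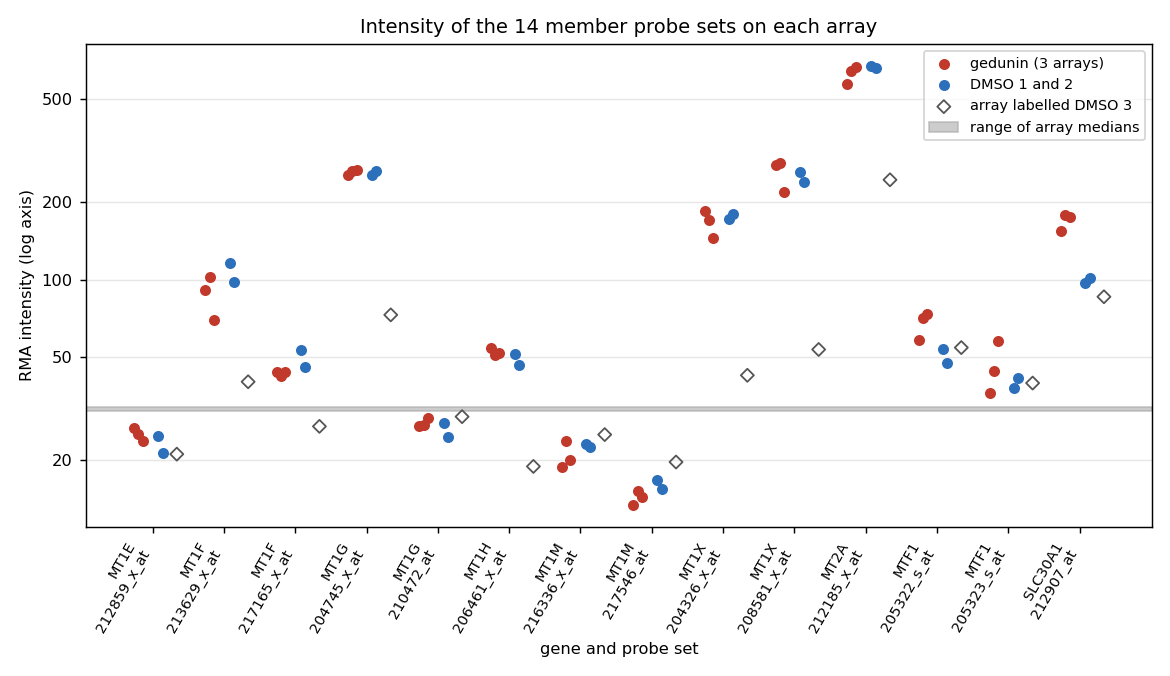
RMA intensity on a log axis of each member probe set on the 3 gedunin arrays (red), DMSO 1 and 2 (blue) and the array labelled DMSO 3 (open diamonds), 1 point per array, with the range of array medians as a grey band. SLC30A1 is the member whose treated arrays stand clearly above the controls, at 154 to 178 against 97.3 and 101. The diamonds of the metallothioneins that were brighter on the other 5 arrays lie below those arrays.

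**Figure D2:**
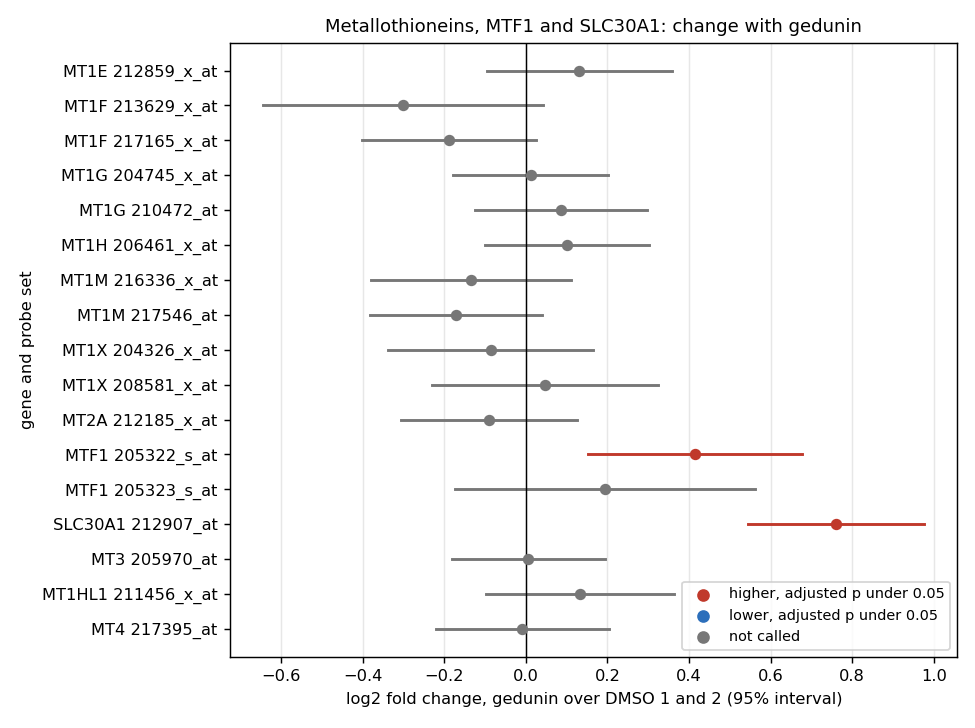
Log2 fold change of gedunin over DMSO 1 and 2 for each probe set of the members and of 3 further metallothionein genes, with 95% intervals from limma (3 against 2 arrays). SLC30A1 and 1 MTF1 probe set, in red, passed an adjusted p of 0.05, and every metallothionein interval includes 0. With arrays centred on GAPDH and ACTB, 3 metallothionein probe sets were called lower, against 5226 of all 22215, and MTF1 was not called.

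Of the metallothioneins outside the 9 genes, 3 were measured. MT1HL1, a metallothionein 1H-like gene on chromosome 1, read 241, 201 and 204 with gedunin and 194 and 198 with DMSO. Its probe set, 211456_x_at, also carries the suffix _x_at, so signal of other family members may appear there. The change was 0.13 ± 0.10 (limma adjusted p = 0.479). All treated arrays lay above DMSO 1 and 2, as in 19.3% of all probe sets. MT3, known from the brain, read 19.0 to 19.5 on the 5 arrays, and MT4, known from stratified epithelium, read 19.2 to 22.0, both below the array median. Their changes were 0.01 and -0.01. Of these 3 genes 0 were called, and with 17.6% of all genes called nothing is read from that count.

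The brighter metallothionein probe sets were lower on the array labelled DMSO 3 than on any other. On that array MT2A read 243, MT1X 53.6 and 42.6, MT1G 73.0 on its brighter probe set and MT1H 18.9. The 7 metallothionein probe sets above the array median were so judged on the other 5 arrays, a choice that favours lower values on this one. All 7 lay below the mean of DMSO 1 and 2, by 0.87 to 2.22 on the log2 scale. Of the 4 dimmer ones, MT1E stood 0.13 lower, 210472_at of MT1G 0.17 higher and the MT1M probe sets 0.14 and 0.28 higher. At least 2-fold lower values were seen in 6 of the 14 member probe sets and at least 2-fold higher values in 0, against 11.0% and 8.13% of all probe sets. Those shares include dim probe sets, which have little room to fall. SLC30A1 stood 0.21 lower there, and the MTF1 probe sets 0.11 and 0.00 higher. With that array among the controls, the changes of the metallothionein probe sets ran from -0.26 to 0.79, with a median of 0.17 and 0 called (lowest limma adjusted p = 0.476).

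The genes with the profile most like SLC30A1 over the 5 arrays, by the root mean square difference of log2 values centred on each gene's mean, were MAP7D1 (0.034), DHRS7B (0.035), TBL2 (0.036), ATF4 (0.038) and HPRT1 (0.039). Their changes of 0.74 to 0.80 follow from the choice by likeness, and 83 genes lay within 0.1 of SLC30A1 by this measure. The profiles most like MT2A were those of TMOD2 (0.014), NIPSNAP1 (0.015), ORC1 (0.015), SLC25A46 (0.017) and UBA1 (0.018). For MT2A, 2479 genes lay within 0.1, since a nearly flat profile has many neighbours.

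Other zinc transporters moved in both directions. The ZnT proteins (SLC30A) move zinc out of the cytosol, to the outside or into vesicles, and the ZIP proteins (SLC39A) bring it in. Of 23 listed family members besides SLC30A1, 14 were measured, of which 2 were called higher and 4 lower by 1 probe set per gene, against 8.24% and 9.36% of all genes (17.6% in either direction). The median of the 14 was -0.12, beside -0.02 over all genes.

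SLC39A14, a ZIP importer of zinc that also carries iron and manganese, read 741, 707 and 876 with gedunin and 349 and 397 with DMSO, and 393 on the array labelled DMSO 3. All treated arrays lay above DMSO 1 and 2, and the change was 1.05 ± 0.11 (limma adjusted p = 1.87e-04). SLC39A7, which releases zinc from the endoplasmic reticulum, read 130, 131 and 125 against 81.4 and 82.7, a rise of 0.65 ± 0.08 (limma adjusted p = 6.58e-04). These were the 2 zinc transporters besides SLC30A1 that were also called with all 6 arrays, at 1.02 and 0.74.

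SLC30A4, a vesicular zinc transporter, read 399, 441 and 354 with gedunin and 733 and 910 with DMSO, and 18.6 on the array labelled DMSO 3. Its fall of 1.04 ± 0.12 on the log2 scale (limma adjusted p = 3.67e-04) was the largest of the list, and with all 6 arrays its value was 0.78 ± 1.54 and not called. SLC39A8, another ZIP importer, read 346, 405 and 372 against 546 and 500, a change of -0.48 ± 0.10 (limma adjusted p = 0.00850). Of its 4 probe sets, a second, 209267_s_at, was called lower (-0.34, limma adjusted p = 0.0459). The other 2 lay below the array median, had values above 0 (0.26 and 0.12) and were not called (limma adjusted p = 0.142 and 0.474). The call of 209267_s_at was lost without gedunin 1, gedunin 2, gedunin 3 or DMSO 2, with values of -0.21 to -0.36 (adjusted p 0.0662 to 0.332), under the replicate block (-0.36, adjusted p = 0.0759) and with arrays centred on their medians (-0.32, adjusted p = 0.0624). SLC30A5, which loads zinc into the early secretory pathway, read 157, 161 and 159 against 222 and 206. Its change was -0.43 ± 0.09 (limma adjusted p = 0.00832). The other SLC30A5 probe set, 220181_x_at, lay below the array median and was not called (-0.17 ± 0.11, limma adjusted p = 0.361). SLC30A10, best known as a manganese exporter, changed by -0.37 ± 0.09 (limma adjusted p = 0.0226) at readings of 17.8 to 24.8, below the array median.

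Without DMSO 1 the calls of SLC30A5 (-0.37, adjusted p = 0.0902), SLC39A8 (-0.42, adjusted p = 0.0959) and SLC30A10 (-0.28, adjusted p = 0.193) were lost, which left 3 of the 6. SLC30A10 was also lost without gedunin 2 (limma adjusted p = 0.0546) and without gedunin 3 (limma adjusted p = 0.0516). The replicate block (-0.35, limma adjusted p = 0.0611), all 6 arrays (-0.36, limma adjusted p = 0.151) and an adjusted p of 0.01 lost it too. SLC39A1, the importer long tied to zinc uptake in prostate cells, read 87.5, 83.0 and 73.6 against 79.5 and 69.7, a change of 0.13 ± 0.11 (95% interval -0.11 to 0.36, limma adjusted p = 0.518).

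Metallothioneins also bind copper, and of 11 measured copper handling genes 1 was called higher and 2 lower, against 8.24% and 9.36% of all genes. SLC31A1, the copper importer CTR1, read 517, 537 and 462 with gedunin and 237 and 247 with DMSO, a rise of 1.06 ± 0.10 (limma adjusted p = 5.94e-05). SCO2, which delivers copper to cytochrome oxidase, fell by 1.27 ± 0.12 (limma adjusted p = 7.88e-05), from 138 and 164 to 55.1, 63.0 and 69.7. ATP7B, a copper-exporting ATPase, read 26.9, 26.2 and 32.4 against 39.9 and 35.4, a change of -0.40 ± 0.11 (limma adjusted p = 0.0396). The ATP7B call was lost without gedunin 1, gedunin 2, DMSO 1 or DMSO 2, with values of -0.32 to -0.49. It was also lost with arrays centred on their medians (-0.38, limma adjusted p = 0.0526) and after a second quantile normalization (-0.37, limma adjusted p = 0.0641). On log2 of the value plus 16 it was -0.27 (limma adjusted p = 0.0571) and with all 6 arrays -0.17 (limma adjusted p = 0.781), neither called. The median of the list was -0.15, beside -0.02 over all genes.

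Of 7 measured genes reported as MTF1 targets besides the metallothioneins and SLC30A1, 1 was called higher and 0 lower, against 17.6% of all genes called in either direction, a share near this background. The median of the 7 was -0.02, as over all genes. GCLC, the catalytic subunit of glutamate-cysteine ligase, read 681, 758 and 815 with gedunin and 271 and 270 with DMSO. GCLC thus rose by 1.47 ± 0.10 (limma adjusted p = 7.76e-06). Its second probe set rose by 1.28 ± 0.11 (adjusted p = 4.34e-05), and with all 6 arrays the first had 1.97 ± 0.43 and was not called (limma adjusted p = 0.135).

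PGF, placenta growth factor, gave unequal readings. The probe set that represents it, 215179_x_at, read 37.0 to 40.7 with gedunin and 36.4 on both controls and was not called (0.07 ± 0.09). The other, 209652_s_at, singled out after its values were seen, read 33.9, 46.8 and 45.6 against 16.1 and 15.0, a change of 1.43 ± 0.14 (limma adjusted p = 8.85e-05). These control values lie below the array median and near the lowest of the table (11.0), so the size of the change is uncertain, and on log2 of the value plus 16 it was 0.87 (limma adjusted p = 0.00127). SELENOW, a selenoprotein, changed by 0.23 ± 0.09 (limma adjusted p = 0.136), and NDRG1, a stress-responsive gene, by -0.03 ± 0.11 (limma adjusted p = 0.903).

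**Figure D3:**
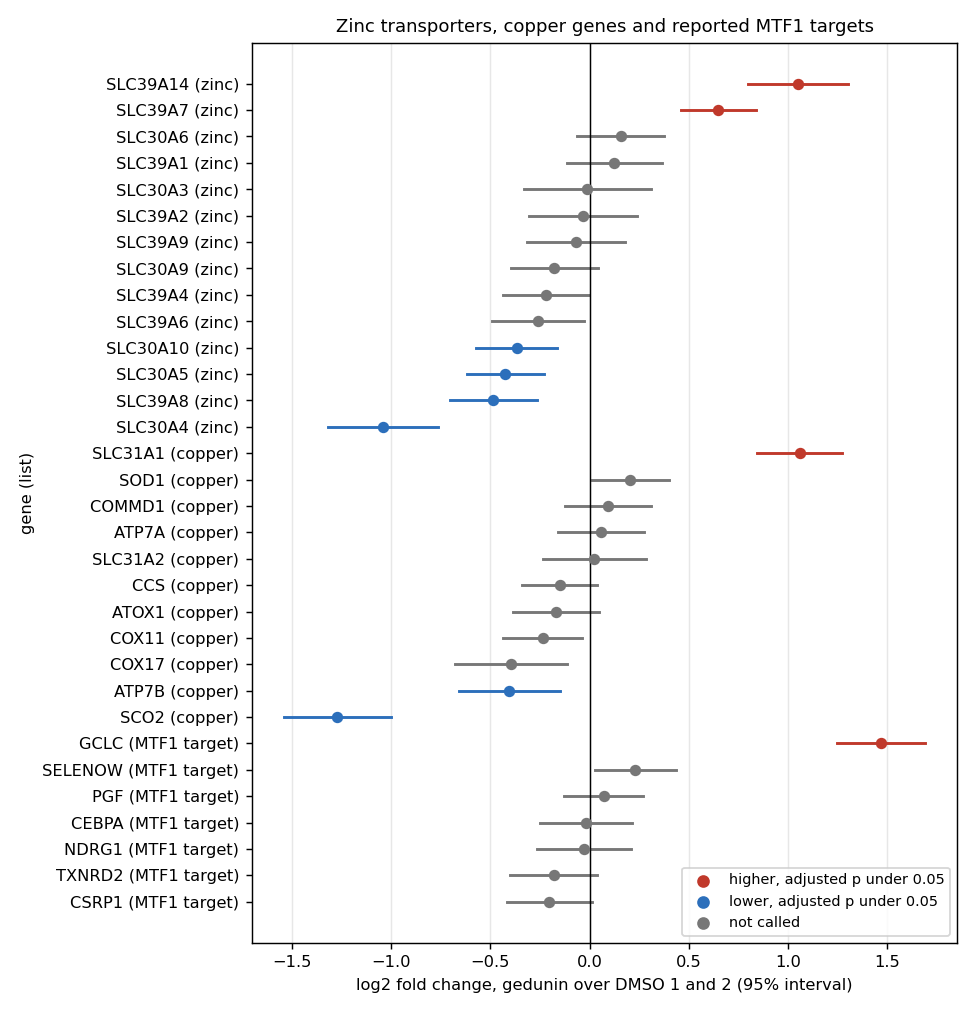
Log2 fold change of gedunin over DMSO 1 and 2 with 95% intervals from limma (3 against 2 arrays) for 14 zinc transporter genes, 11 copper handling genes and 7 reported MTF1 targets, 1 probe set per gene, sorted by value within each list. SLC39A14, SLC39A7, SLC31A1 and GCLC, in red, were called higher, and SLC30A4, SLC39A8, SLC30A5, SLC30A10, ATP7B and SCO2, in blue, lower.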

How the data were processed

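The deposited table holds 1 intensity per array for 22215 probe sets, made by the authors with RMA (version not stated), per the submitters' processing notes. RMA subtracts background, equalises the distributions of arrays and combines the probes of a probe set. Which arrays were processed together and which values were detected is not given in the sources used here. Values were linear, from 11.0 upward, so log2 was taken here. Gene names came from the platform annotation supplied (19724 name 1 gene, 568 several, 1923 none), and 19707 matched RefSeq by Entrez identifier. limma 3.58.1 (R 4.3.3; lmFit, eBayes without trend) was fitted over all probe sets with no filter on dim ones. In lists, a gene was read from its brightest probe set over the 5 arrays. The members, lists, and the setting apart of DMSO 3 were chosen with earlier results of these data known. Named were all metallothioneins and members, up to 4 called genes per list with the largest changes, and the 5 nearest profiles of MT2A and SLC30A1; SLC30A5, SLC30A10, SLC39A1, SELENOW, NDRG1 and a PGF probe set are exceptions, chosen after their values were seen. The fit was tested on simulated data. Replicate numbers were not used to pair the arrays in the main fit, and the labels do not say whether they mark pairs. Alternatives covered arrays, pairing, scaling, filters, variance model, threshold, log offset and probe set suffix.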

Additional observations from a re-analysis of the deposited data

How the results depend on the processing

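SLC30A1 was called higher under all 16 alternatives run, at 0.59 to 0.83 (limma adjusted p 1.19e-04 to 0.0364), and 205322_s_at of MTF1 under 6 of 15, so the count of members called higher was 1 in place of 2 with all 6 arrays, a replicate block, GAPDH and ACTB centring, an adjusted p of 0.01, log2 of the value plus 16, or no _x_at and _s_at probe sets (where 3 member probe sets remain). Leaving out 1 array gave 1 or 2 members higher, 1805 to 3064 probe sets called in all and 3 to 6 zinc transporters; with 1 DMSO array, it is assumed to vary like the treated ones. Centring on GAPDH and ACTB moved the median of all probe sets to -0.18 and that of the metallothioneins to -0.26. It turned the 3396 calls (1638 higher, 1758 lower) into 6267 (1041 and 5226). Of the member probe sets it called 3 lower, both of MT1F (-0.47 and -0.36) and 217546_at of MT1M (-0.34). In either direction it called 7 copper genes and 3 MTF1 targets. With all 6 arrays 312 probe sets, 2 zinc transporters and 0 MTF1 targets were called, and the metallothionein median was 0.17. eBayes with trend and robust called 3756 of all 22215 probe sets, 5 copper genes and 2 MTF1 targets. An adjusted p of 0.01 called 1869 probe sets. Dropping the suffixes left 11813 probe sets, of which 1586 were called, and 3 called zinc transporters. SLC39A7, SLC39A8 and SLC30A5, called in the main fit, have only probe sets with these suffixes and were not tested there. Same-numbered arrays' deviations correlated at -0.03 and 0.04, which with 2 DMSO arrays cannot settle whether the cultures were paired. The replicate block called 2931 probe sets and gave SLC30A1 0.73 (limma adjusted p = 0.00267) and MTF1 0.35 (limma adjusted p = 0.126). The causes were not tested. Metallothioneins were called under no other alternative.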
